A study of Mus musculus with 4 samples.

Results

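Txnip, Arrdc4, Arrdc2, Arrdc3, Mlxip, Mlxipl and Mlx were followed in IMS32 cells, an immortalized line of adult mouse Schwann cells, the glia that ensheathe peripheral axons. The genes encode 4 alpha-arrestins and the transcription factors of the MondoA family that sense sugar phosphates. They were chosen by gene symbol, from the annotation of the array, and with their values in these 4 conditions already known, so what follows is a description. The symbols took 7 of 31093 gene names and 12 of 39429 different probes on the array, and all 12 probes were well above background in every condition.

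The study addressed what exogenous pyruvate does in Schwann cells at a raised glucose concentration. Every group was kept for 1 h in DMEM with 5% serum. The [Glc 5 mM/Pyr (+)] group had 5 mM glucose and 1 mM pyruvate, [Glc 5 mM/Pyr (−)] had 5 mM glucose and 0 mM pyruvate, [Glc 15 mM/Pyr (+)] had 15 mM glucose and 1 mM pyruvate, and [Glc 15 mM/Pyr (−)] had 15 mM glucose and 0 mM pyruvate. Each group is 1 RNA sample of 1 cell line on 1 one-colour array, so condition and culture cannot be told apart, no test of a difference was possible and no p-value is given.

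TXNIP binds reduced thioredoxin and, like its nearest relative ARRDC4, promotes removal of glucose transporters from the cell surface. Their genes are known targets of MondoA (encoded by Mlxip) and ChREBP (Mlxipl), which pair with MLX (Mlx), respond to glucose 6-phosphate and bind carbohydrate response elements made of spaced E-boxes. ARRDC2 and ARRDC3 are other alpha-arrestins, adaptors that bring ubiquitin ligases of the NEDD4 family to membrane proteins.

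The sequences before the annotated starts of Txnip, Arrdc4 and Arrdc2 are shown because these alpha-arrestins had 2 probes each and both were highest in [Glc 15 mM/Pyr (−)]. RefSeq promoter windows of GRCm38.p6 matched 7 of 7 genes, with 10 windows in all. Each line gives the 250 bases before the start, 5′ to 3′ on the strand of the gene, with matches to the motifs below in capitals. The windows are chr3:96557707-96557956 on the plus strand for Txnip, chr7:68749239-68749488 on the minus strand for Arrdc4 and chr8:70839721-70839970 on the minus strand for Arrdc2.
Txnip: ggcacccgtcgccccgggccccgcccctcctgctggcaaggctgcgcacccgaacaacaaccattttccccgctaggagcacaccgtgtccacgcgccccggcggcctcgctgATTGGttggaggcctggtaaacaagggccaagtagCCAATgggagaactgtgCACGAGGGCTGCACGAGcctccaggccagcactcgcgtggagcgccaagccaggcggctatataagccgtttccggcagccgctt
Arrdc4: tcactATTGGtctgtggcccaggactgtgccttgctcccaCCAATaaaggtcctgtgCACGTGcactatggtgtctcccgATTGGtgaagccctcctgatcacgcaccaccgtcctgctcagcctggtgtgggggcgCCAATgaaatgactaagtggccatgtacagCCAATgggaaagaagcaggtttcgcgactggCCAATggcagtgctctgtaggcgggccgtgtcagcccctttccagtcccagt
Arrdc2: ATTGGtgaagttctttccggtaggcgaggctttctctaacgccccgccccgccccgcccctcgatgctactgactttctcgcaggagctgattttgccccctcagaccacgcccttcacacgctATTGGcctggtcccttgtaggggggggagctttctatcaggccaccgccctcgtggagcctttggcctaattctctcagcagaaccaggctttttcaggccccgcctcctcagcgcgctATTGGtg

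The motifs were searched by exact letters on both strands, and a match is a description of the sequence only. The degenerate form of the carbohydrate response element, CACGNGNNNNNCNCGNG, was present in Txnip as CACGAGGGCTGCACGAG, from 85 to 69 bases before the start. Of 32851 windows of this length, 92 (0.280%) held it. None of the other 9 windows of these genes held it, and the form with 2 full E-boxes, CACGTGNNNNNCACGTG, was in 0 of the 32851 windows. A single E-box, CACGTG, lay 193 to 188 bases before the start of Arrdc4, 98 to 93 before the second start of Mlxipl and 40 to 35 before that of Mlx, against 6.02% of all windows. The CCAAT box, read as CCAAT on either strand, was found 6 times in Arrdc4, 3 times in Arrdc2 and 2 times in each of Txnip, Mlxip and Mlx. At least 1 was present in 33.8% of all windows and at least 3 in 2.79%.

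**Figure D1:**
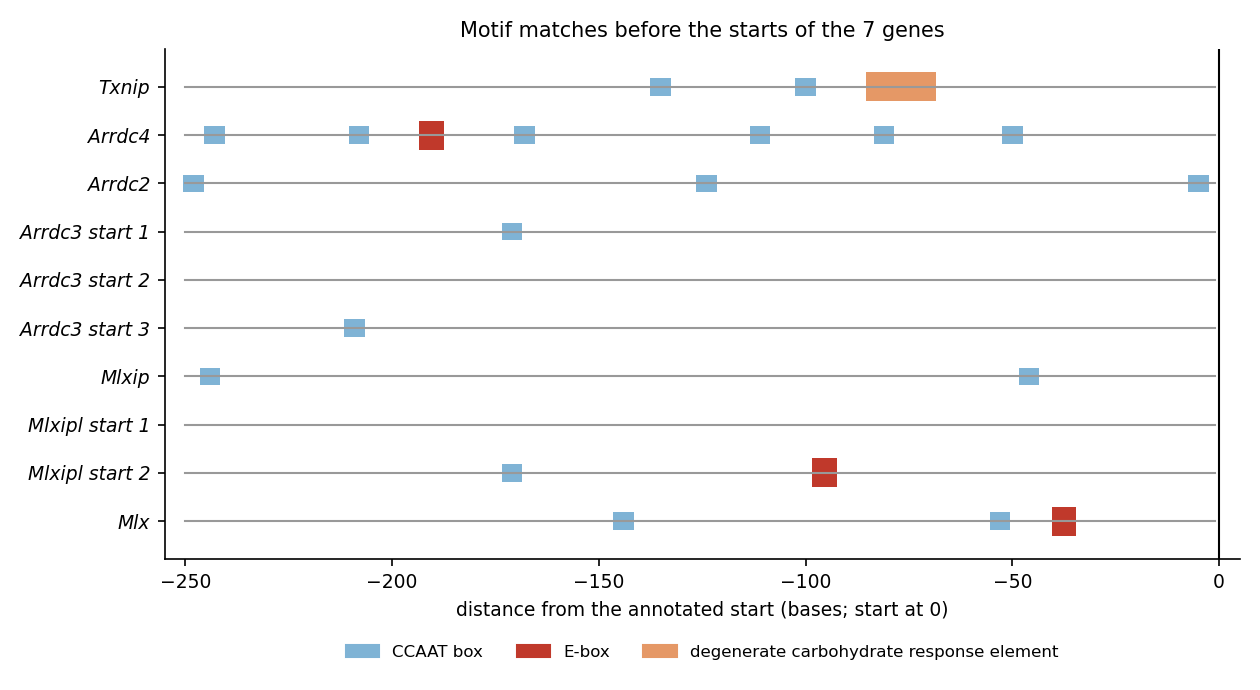
Positions of motif matches in the 250 bases before each annotated start of the 7 genes (x axis, bases from the start), with 1 line per RefSeq window. Boxes mark CCAAT boxes, E-boxes and the degenerate carbohydrate response element, and Txnip is the gene of the set with a box of the last kind.

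The arrays measured spot intensity after background correction. Intensity was taken on the log2 scale relative to the 75th percentile of each array, which was 1597 to 1788, and differences below are differences of these log2 values. Error can be given within an array only. Of the 399 probes printed 10 times, 286 to 311 per array were well above background. The median SD between their spots was 0.07 to 0.08 (log2). This median makes the SD of a difference between single spots 0.11 and that of a difference of 2 differences 0.16. Some of these probes had an SD of 0.20 to 0.25 or more, depending on the array, and for them 0.11 and 0.16 are too small. Which SD applies to a probe printed once is not known. The error that Feature Extraction gives each spot is larger than the median SD, and makes that of a difference 0.20 to 0.28 for the 12 probes. Variation between cultures is covered by neither. In RNA of whole cultures, fewer cells of a type and less RNA per cell cannot be told apart. All 11 Schwann cell markers examined were above background in every condition, among them Sox10 and S100b, although Erbb3 was dim, with at most 22.2. Of the markers of other cells, 5 of 5 for fibroblasts, 4 of 4 for macrophages, 2 of 3 for endothelium and 2 of 3 for neurons were also above background in every condition, and Cdh5, which defines endothelium, was so in none. From [Glc 5 mM/Pyr (+)] to [Glc 15 mM/Pyr (−)] in the order above, their summed intensity per array was 65035, 60950, 58114 and 53356 for Schwann cells. It was 87589 to 93733 for fibroblasts, 2295 to 3141 for macrophages, 4230 to 5704 for endothelium and 363 to 502 for neurons. The Schwann cell sum was lowest in [Glc 15 mM/Pyr (−)], and the macrophage and neuron sums were highest there. Of the macrophage markers, Cd68 had 1817 there against 969 to 1258 in the other groups, Aif1 and Ptprc were lowest there, with 259 and 23.4, and Csf1r was 1001 to 1063 over all groups. Their part in the values below was not tested.

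Txnip stood out in [Glc 15 mM/Pyr (−)]. It was measured by probes at chr3:96365147-96365206 (A_51_P438805) and chr3:96364206-96364265 (A_55_P2006255), both in mm9, as are all probe positions here. An mm9 annotation was not used, so exons and UTRs are not given. The first probe had an intensity of 1991 in [Glc 5 mM/Pyr (+)]. Without pyruvate at the same glucose concentration it had 1476, and at 15 mM glucose it had 1808 with pyruvate and 3553 without. The second probe had 262, 205, 248 and 427 in the same order. On both probes [Glc 15 mM/Pyr (−)] was the highest array and [Glc 5 mM/Pyr (−)] the lowest, while the pyruvate-containing groups lay between them, 0.02 and 0.09 apart. That last gap is within the spread between spots of 1 probe.

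Without pyruvate, Txnip was 2.57-fold (A_51_P438805) and 2.22-fold (A_55_P2006255) higher at 15 mM than at 5 mM glucose. On A_55_P2006255 this was below 2-fold with spike-in scaling (log2 difference 0.91) and with normexp background correction (0.92). With pyruvate, the same glucose comparison gave 1.02-fold and 1.06-fold. Glucose thus went with a large difference on these arrays in the groups without pyruvate and with a small one in the groups with it, which was -0.38 and -0.31 with spike-in scaling. Leaving out pyruvate at 15 mM glucose gave log2 differences of 0.94 and 0.75, and leaving it out at 5 mM glucose gave -0.39 and -0.31. The sign of the pyruvate difference therefore was opposite at the 2 glucose concentrations on each probe. All 4 values were larger than 2 SDs of a difference between spots, 0.22, but those at 5 mM were less than 2 times the error from Feature Extraction, 0.20 and 0.21. With normexp the value at 5 mM on A_55_P2006255 was -0.21. The pyruvate difference at 15 mM minus that at 5 mM was 1.34 and 1.07, or 1.20 as the mean over both probes. With normexp it was 0.80 on A_55_P2006255, below 2-fold. Among all probes measured, the probes ranked 125 and 190 from the top of 28211 for glucose without pyruvate, 299 and 486 of 27784 for the pyruvate groups at 15 mM, and 181 and 324 of 27590 for the difference of differences.

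Arrdc4 showed the same order of groups with smaller differences, and its probes disagreed on the size. Its positions were chr7:75886496-75886555 (A_55_P2101191, assigned by the array design to transcript variant 2) and chr7:75881905-75881964 (A_51_P111612, variant 1), both on the minus strand and 4531 bases apart. To show what each reads, the first 30 of the 60 bases of each probe are given 5′ to 3′, with the part of the bright Mlxipl probe described further down in which its shared run lies.
Arrdc4 A_55_P2101191: catcagagtggactactccttagctgtaat
Arrdc4 A_51_P111612: ccaaggggaaaataaagattgtattttgta
Mlxipl A_55_P2045158, bases 31 to 60: atgcacacctttaatcccagtacttgggag

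The variant 2 probe of Arrdc4 had intensities of 2497, 2219, 2345 and 2492 from [Glc 5 mM/Pyr (+)] to [Glc 15 mM/Pyr (−)]. After scaling, the 4 arrays lay within 0.26 (log2), and no neighbouring pair in the order differed by more than 2 SDs. The variant 1 probe had 174, 166, 179 and 250, with [Glc 15 mM/Pyr (−)] the highest by 0.45. This probe was printed 10 times, so its error within each array is known directly. At 5 mM glucose, spots ranged from 157 to 201 with a median of 172 where pyruvate was present, and from 151 to 181 with a median of 164 where it was absent. At 15 mM glucose, they ranged from 167 to 200 with a median of 181 over 9 spots where pyruvate was present, and from 230 to 264 with a median of 249 where it was absent. Spots of the last array did not overlap those of any other array, also on the scaled log2 values, where they ran from -2.83 to -2.63 against a highest value of -3.00 elsewhere. How many of the 399 probes printed 10 times had such a separation was not counted, so nothing is read from it. Spots of 1 array share a single RNA sample and are not replicates of a condition. The SD between spots was 0.07 to 0.10 (log2) per array. On this probe, 15 mM against 5 mM glucose differed by 0.68 without pyruvate and 0.20 with it (-0.20 with spike-in scaling), and leaving out pyruvate differed by 0.45 at 15 mM and -0.03 at 5 mM glucose. On the variant 2 probe the same differences were 0.26, 0.07, 0.06 and -0.13.

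**Figure D2:**
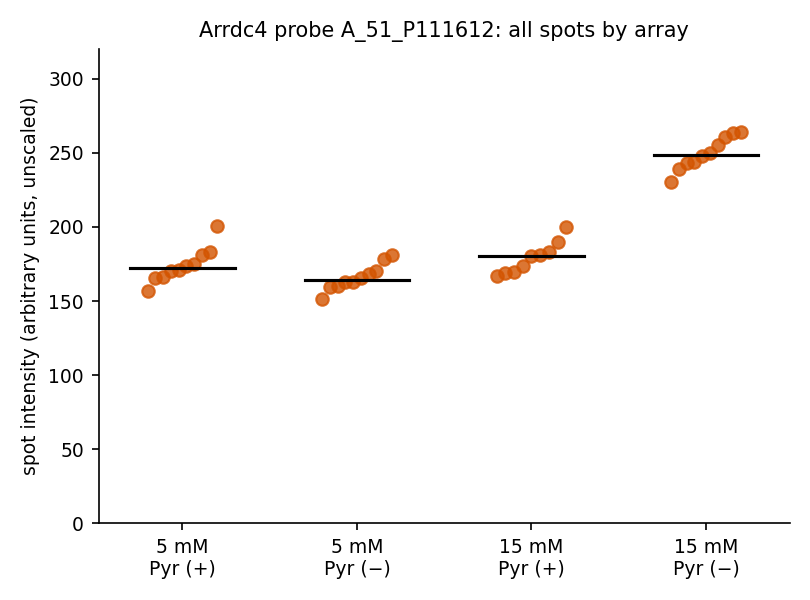
Unscaled intensity (y axis, arbitrary units, from 0) of every spot of the Arrdc4 probe A_51_P111612 that was used, by condition, with horizontal bars for the median. The 10 spots of [Glc 15 mM/Pyr (−)] lie between 230 and 264, above all spots of the other conditions. How many other probes printed 10 times were separated in this way was not counted, so nothing is read from it. Spots of the same array share a single RNA sample and are not replicates of a condition.

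Arrdc2 was also highest in [Glc 15 mM/Pyr (−)]. Its probes at chr8:73359065-73359124 (A_55_P2088440) and chr8:73359054-73359113 (A_55_P1957922) on the minus strand share 49 bases, so they are close to a repeat of a single measurement. Intensities from [Glc 5 mM/Pyr (+)] to [Glc 15 mM/Pyr (−)] were 869, 876, 695 and 1370 on A_55_P2088440. On A_55_P1957922 they were 669, 689, 555 and 1047. Neighbours among the other 3 arrays did not differ by more than 2 SDs on either probe. As the mean of both probes, the pyruvate difference was 0.92 at 15 mM and 0.07 at 5 mM glucose (-0.15 with spike-in scaling), and the glucose difference was 0.72 without and -0.13 with pyruvate.

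Arrdc3 was dimmer and varied less. At chr13:81034981-81035040 its only probe, A_52_P164136, had intensities of 135, 105, 102 and 143. The value in [Glc 15 mM/Pyr (−)] was the highest, but it exceeded that of [Glc 5 mM/Pyr (+)] by 0.22, less than 2 SDs before rounding. Leaving out pyruvate went with a lower level at 5 mM glucose, -0.31, and a higher level at 15 mM, 0.46, so that Arrdc3, like Txnip, had pyruvate differences of opposite sign. The value at 5 mM was less than 2 times its error from Feature Extraction, 0.21. The background correction matters at this intensity. With the normexp model the values at 5 and 15 mM were -0.15 and 0.22, the first smaller than 2 SDs.

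The genes of the sensors themselves did not share this pattern. Mlxip, encoding MondoA, had intensities of 374, 337, 286 and 242 on the probe at chr5:123907398-123907457 (A_51_P246727). The dim second probe, at chr5:123896216-123896275 (A_55_P2153907), had 52.8, 46.7, 30.9 and 35.5. Both were highest in [Glc 5 mM/Pyr (+)] and lower in both 15 mM groups. The glucose difference of the gene was -0.42 with pyruvate and -0.34 without, and leaving out pyruvate differed by -0.12 at 5 mM and -0.05 at 15 mM glucose. At 15 mM glucose the probes disagreed in sign, with -0.27 on the brighter and 0.17 on the dimmer.

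Mlxipl, encoding ChREBP, was measured on chromosome 5 by A_55_P2045158 (135614195 to 135614254) and A_55_P2119957 (135613705 to 135613764), 430 bases apart. The bright probe had 7803, 6993, 5222 and 4448. It was highest in [Glc 5 mM/Pyr (+)] and lowest in [Glc 15 mM/Pyr (−)], with glucose differences of -0.42 with pyruvate and -0.56 without. This probe shared a run of 18 bases or more with 1 probe of another gene and with 2 of the 32851 promoter windows, whereas the other 11 probes shared none with either. The search for shared runs covered probes of the array and promoter windows only, so the counts do not show how often such a run occurs in transcripts. The reading of this probe may include other transcripts, which was not tested. Values given for Mlxipl as a gene are means that include this probe. The dim probe had 55.1, 57.2, 49.8 and 37.1, again lowest in [Glc 15 mM/Pyr (−)], and gave glucose differences of 0.02 with pyruvate and -0.53 without. Lower signal in [Glc 15 mM/Pyr (−)] than in [Glc 5 mM/Pyr (−)] was thus present on both probes.

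Mlx, encoding the partner of both sensors, had intensities of 2279, 2155, 1974 and 2359 on its probe at chr11:100952426-100952485 (A_51_P261443). Its scaled values lay within 0.23 of each other, and no neighbours in their order differed by more than 2 SDs. The differences were -0.04 and 0.23 for leaving out pyruvate at 5 and 15 mM glucose.

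**Figure D3:**
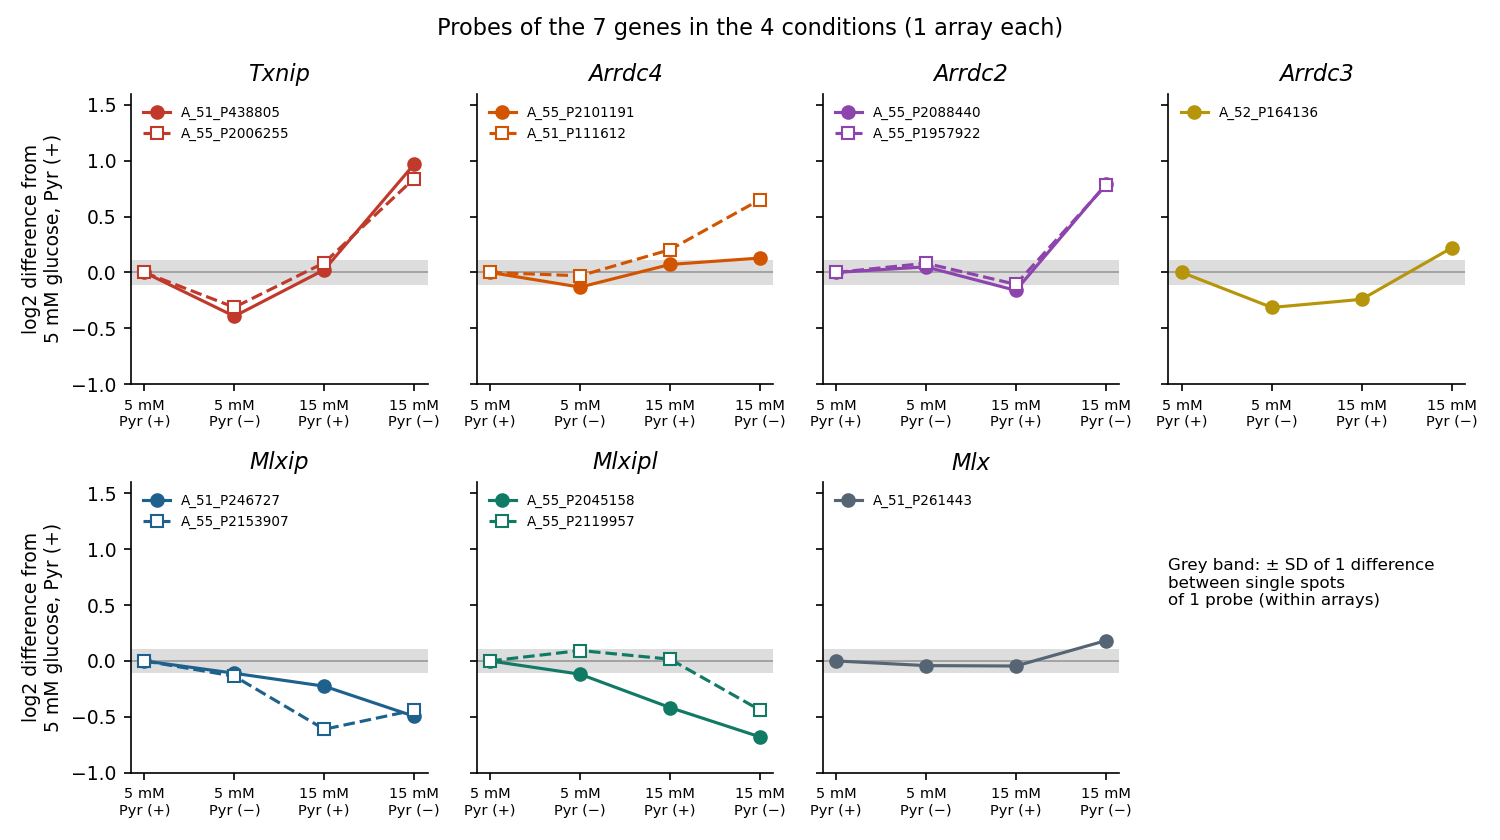
Log2 difference of each probe (y axis) from its own value in [Glc 5 mM/Pyr (+)], across the 4 conditions, with 1 panel per gene and 1 line per probe. The grey band is ± 1 SD of a difference between spots, 0.11, and the points of Txnip and Arrdc2 in [Glc 15 mM/Pyr (−)] lie well above it while those of Mlxip and Mlxipl lie below it.

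Counted over probes, 7 of 7 alpha-arrestin probes and the Mlx probe were highest in [Glc 15 mM/Pyr (−)], and 0 of 4 Mlxip and Mlxipl probes were. Of all 27590 probes measured on the 4 arrays, 38.0% were highest there. Scaling to the spike-in controls left 5 of the 7 alpha-arrestin probes, the exceptions being the variant 2 probe of Arrdc4 and the Arrdc3 probe. The Mlx probe was not highest there with that scaling either. The share of all probes was not counted under it. Past 2-fold in either direction, 0 of the 12 probes were found when the pyruvate groups were compared at 5 mM (1.17% of all probes measured) and 0 at 15 mM (2.1%). When the glucose groups were compared, 0 were past it with pyruvate in the medium (0.967%) and 2 without (2.4%), both of Txnip. For the difference of differences 2 were past it, again those of Txnip (2.85% of all probes). These counts describe values with which the genes were chosen, and nothing is read from them. Of the 36 gaps between neighbours in the order of arrays, 13 were over 2 SDs.

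The crossed difference (pyruvate at 15 mM minus pyruvate at 5 mM) ordered the genes as Txnip 1.20, Arrdc2 0.85, Arrdc3 0.77, Arrdc4 0.33, Mlx 0.27, Mlxip 0.07 (-0.11 with normexp) and Mlxipl -0.35. Neighbours in this order differed by 0.08 (Arrdc2 and Arrdc3) and 0.06 (Arrdc4 and Mlx), less than the SD of 0.16 within arrays. That is the SD of 1 crossed difference, and a gap between genes has a larger one. Mlx and Mlxip differed by 0.19. The error from Feature Extraction of a crossed difference was 0.29 to 0.36 for the 12 probes, so much of the order is not resolved. All probes of the array had a median of 0.04 and an SD of 0.38 for it.

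**Figure D4:**
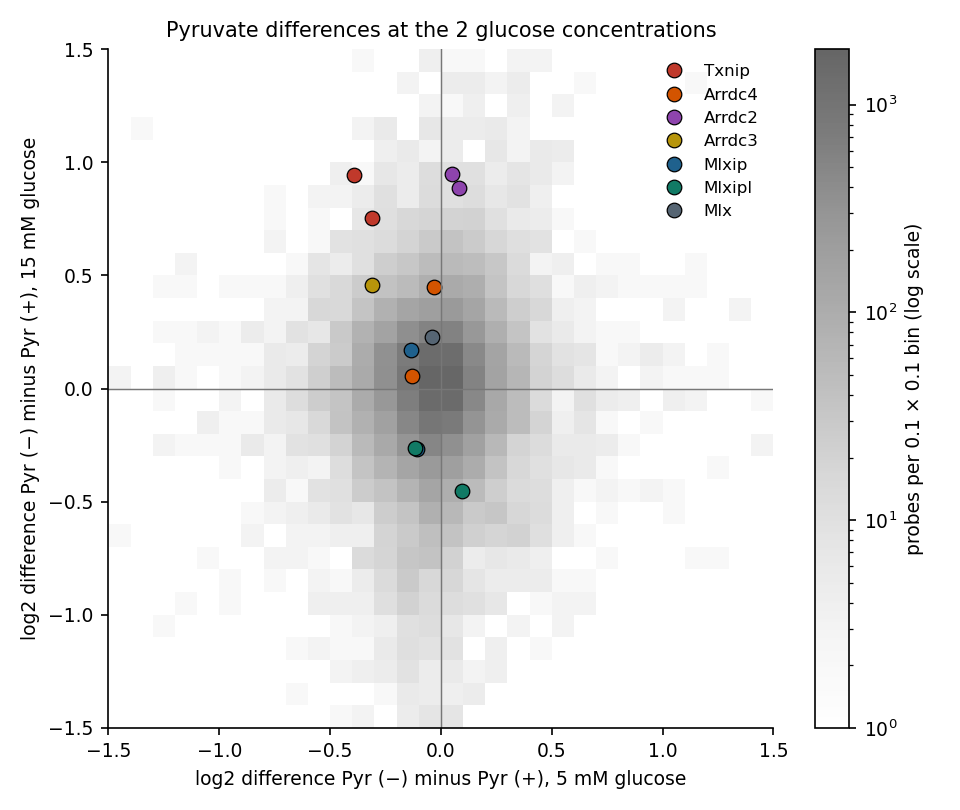
Log2 difference Pyr (−) minus Pyr (+) at 5 mM glucose (x axis) and at 15 mM glucose (y axis), with the number of probes per bin in grey on a log scale and the 12 probes as coloured points. Both Txnip probes and the Arrdc3 probe lie to the upper left, Arrdc2 lies above the centre, and Mlxipl and the brighter Mlxip probe lie below 0 on the y axis. Probes beyond the axes are not drawn.

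The 5 lists of other genes of the pathway held 56 genes besides the 7, of which 49 or 50 were measured, depending on the comparison. In each of the 5 comparisons 0 of them, as means over a gene's probes, were past 2-fold, against 0.967% to 2.85% of all single probes. The share over all genes was not counted. With lists of this size a count of 0 is near the shares of probes and is no result about these genes. Among 23 other known targets of MondoA and ChREBP, 19 were measured. For glucose without pyruvate 4 were above and 15 below 0, with a median of -0.06 against 0.03 for all genes. The SD of a difference between spots, 0.11, does not measure the spread of a median over genes. The share of all genes below 0 was not counted, so nothing is read from this median. The median of these targets for pyruvate at 15 mM glucose was 0.02, against 0.03 for all genes. The largest crossed difference in this list was that of Pfkfb3, which makes the activator of phosphofructokinase, at -0.44. Its probes disagreed, with 0.11 on the bright and -0.99 on a dim probe.

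In the list of the thioredoxin system, whose central protein TXNIP binds, 7 of 7 genes were measured. The list also held Nlrp3, which is not a gene of that system. Every difference per gene lay between -0.15 and 0.20, but single probes went further, to -0.33 on an Nlrp3 probe for pyruvate at 15 mM. Txn1, thioredoxin itself, had 51848, 50070, 48758 and 54060. The largest crossed difference of this list was -0.13, of the thioredoxin-like gene Txnl1. Of the remaining arrestins, Arrdc1, Arrdc5, Arrb1 and Arrb2, none had a crossed difference beyond that of Arrb1, -0.20. The list of ligases, receptors and transporters that work with arrestins had 12 of 12 genes measured. For glucose without pyruvate its median was -0.10 against 0.03 for all genes, with 2 above and 10 below 0. Neither the spread of a median over these genes nor the share of all genes below 0 was determined, so nothing is read from this median. Slc2a1, the glucose transporter GLUT1, had 10134, 10505, 8915 and 10460, and its pyruvate difference at 15 mM was 0.20. In the MLX and MAX network, 8 of 10 genes were measured for pyruvate at 5 mM and 7 at 15 mM glucose. Mxd1, a repressor that pairs with MAX or MLX, had the largest crossed difference, 0.44, from probes at 0.60 and 0.28. On one of its probes the intensities were 434, 530, 376 and 732, highest in [Glc 15 mM/Pyr (−)].

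**Figure D5:**
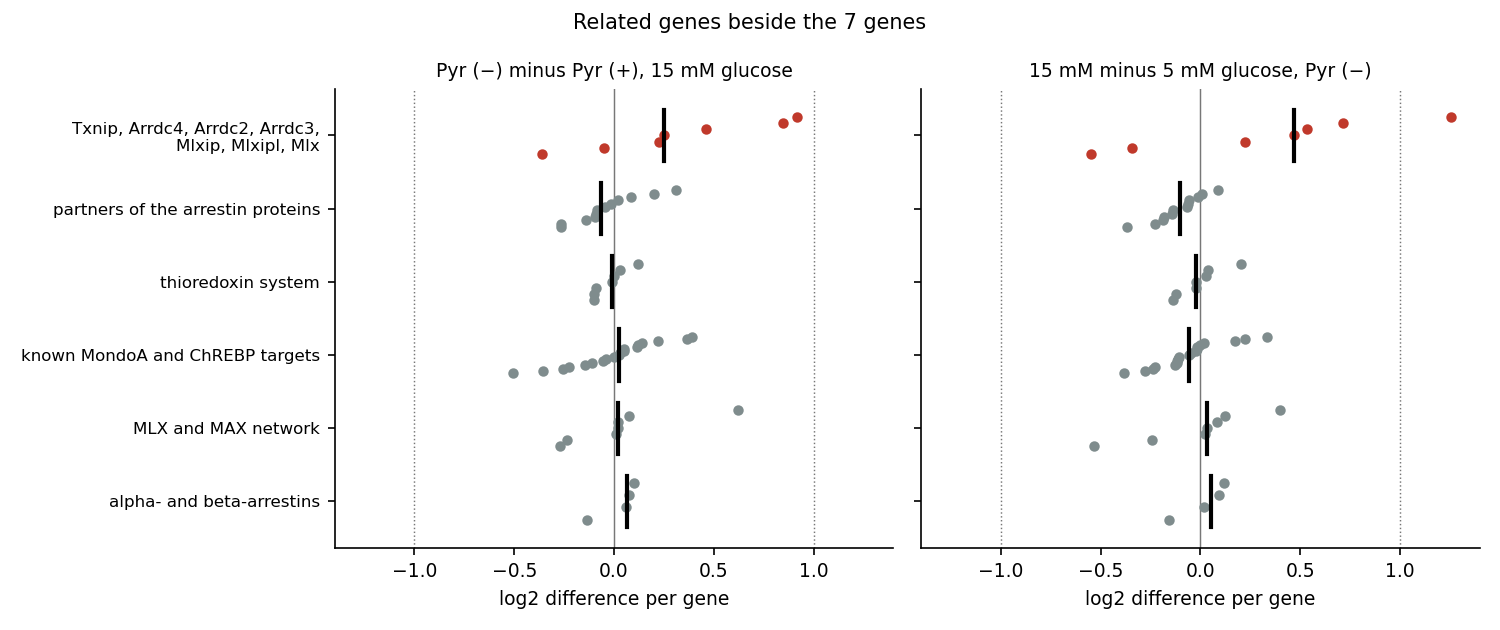
Log2 difference per gene (x axis) between the pyruvate groups at 15 mM glucose (left) and between the glucose groups without pyruvate (right), in the 5 lists of related genes and in the 7 genes themselves (red). Thick bars are medians and dotted lines mark 2-fold, which Txnip alone passes, at 1.26 in the second panel.

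The genes most like Txnip over the 4 arrays were found by the Euclidean distance between log2 values centred on each gene's mean, among 15256 genes with all probes above background. With 4 points per gene this is a description. The nearest were 4930435H24Rik (distance 0.14), Foxo4 (0.16), Gm2011 (0.17), 4931431C16Rik (0.17) and Ier2 (0.20). Foxo4, a forkhead transcription factor with 2 probes, had 52.6, 27.3, 38.4 and 125 as the brighter reading of each array. Its mean difference over both probes was 1.20 for glucose without pyruvate, less than these readings give. The Foxo4 probes thus disagreed on the size, and its distance rests on their mean. Ier2, an immediate-early gene, had 372, 308, 309 and 630, and the other 3 were dim, with intensities between 14.1 and 62.9. Of the 6 other genes followed here, Arrdc2 was at rank 122, Arrdc3 at 323, Arrdc4 at 328 and Mlx at 1951, whereas Mlxip was at 14175 and Mlxipl at 14732. Taken from Arrdc4, whose mean profile is flatter, Txnip was at rank 13046 of the same genes.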

How the data were processed

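Gene expression of IMS32 cells was measured on 4 one-colour arrays, 1 per condition. The authors deposited scanner output of Agilent Feature Extraction 11.5.1.1, with an intensity per spot from which background had been subtracted. They also deposited a table of each intensity as a ratio to the 75th percentile of its array, used here as an alternative. GeneSpring GX is named in the methods without settings. The number of arrays limits the precision.

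Repeated spots of a probe were averaged after removal of control and outlier spots. Each log2 intensity had the 75th percentile of its array's mouse probes subtracted. For a gene, differences of all its probes well above background on the arrays compared were averaged. With 1 array per condition nothing was tested, and a probe past 2-fold is called. The 7 genes and the lists were chosen with earlier results of these data known. Named are the 7 genes, in each list the gene of largest crossed difference, any listed gene past 2-fold, the 5 nearest to Txnip and cell type markers. Some genes that this rule takes are not reported here. Txn1, Slc2a1 and Nlrp3 were named after their values were seen. Alternatives were 3 other scalings, normexp (offset 50), the deposited ratio, the brightest probe, filters on dim probes and a 1.5-fold threshold. Calculations used Python 3.11.15, pandas 2.3.3 and limma 3.58.1 and were tested on simulated data.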

Additional observations from a re-analysis of the deposited data

Results flagged for a closer look

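For Txnip and Arrdc3, leaving out pyruvate went with a lower level at 5 mM glucose and a higher level at 15 mM glucose, so the 2 concentrations moved in opposite directions. The pyruvate difference at 15 mM minus that at 5 mM was 1.20 for Txnip and 0.77 for Arrdc3 on the log2 scale. With normexp background correction the value of Arrdc3 was 0.37. The flag needed opposite signs, each beyond 1 SD of a difference between spots, 0.11. On every probe of these genes the value at 5 mM glucose was less than 2 times its error from Feature Extraction. With 1 array per condition the difference between the concentrations was not tested.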

How the results depend on the processing

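No paired analysis was possible because each condition has 1 array and the replicate number is only a name. For the same reason no setting without 1 of the arrays was run. Under other settings 269 log2 differences and list medians moved by less than 1 SD of such a difference between spots and 61 by more. Of counts of probes past the threshold, 24 stayed within 1.5 times the reported count and 16 did not. For Txnip, the glucose difference without pyruvate ran from 1.01 to 1.36. Of 35 differences of the 7 genes, 29 kept their sign in every setting and 6 did not in at least 1.

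Scaling to 8 spike-in probes moved the all-probe median by -0.21 between pyruvate groups at 5 mM, -0.06 at 15 mM, -0.40 for glucose with pyruvate, -0.24 for glucose without it and 0.16 for the crossed difference. In that order, without the second comparison, the values became -0.57, -0.35, 1.01 and 1.36 for Txnip. They became -0.29, -0.26, 0.23 and 0.49 for Arrdc4, -0.15, -0.54, 0.47 and 1.01 for Arrdc2, and -0.53, -0.64, 0.29 and 0.93 for Arrdc3. For Mlxip they were -0.34, -0.82, -0.59 and 0.23, for Mlxipl -0.23, -0.60, -0.79 and -0.19, and for Mlx -0.26, -0.45, -0.021 and 0.43. List medians for the first 3 of these comparisons became -0.20, -0.41 and -0.21 in the MLX and MAX network, -0.19, -0.38 and -0.19 in the arrestins, and -0.19, -0.44 and -0.30 in the MondoA and ChREBP targets. They became -0.24, -0.42 and -0.34 for partners of the arrestins and -0.22, -0.40 and -0.26 for the thioredoxin system. The count past 2-fold for glucose with pyruvate became 580.

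Under normexp, Txnip without pyruvate gave 1.13 for glucose. Arrdc3 gave -0.15 and 0.22 for pyruvate at 5 and 15 mM, -0.013 and 0.36 for glucose with and without pyruvate, and 0.37 crossed. Mlxip gave -0.17 for pyruvate at 15 mM, -0.10 and -0.21 for glucose, and -0.11 crossed, and Mlxipl -0.40 for glucose without pyruvate. On A_55_P2006255 alone, Txnip was below 2-fold, at 0.92 for glucose without pyruvate and 0.80 crossed, and spike-in scaling gave 0.91 for the former. With the brightest probe of each gene, Arrdc4 gave 0.057 for pyruvate at 15 mM and 0.26 for glucose without pyruvate. Mlxip gave -0.27 for pyruvate at 15 mM, -0.23 for glucose with pyruvate and -0.16 crossed, and Mlxipl -0.42 for glucose with pyruvate and -0.14 crossed. Apart from what each setting does by construction, the cause was not tested.

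Counts past 2-fold, for pyruvate at 5 and 15 mM, glucose with and without pyruvate and the crossed difference, became 10, 100, 8, 113 and 133 with normexp and 1652, 2546, 1624, 2757 and 3697 without a filter on dim probes. At 1.5-fold they were 931, 1817, 880, 2054 and 2401. Probes near background have the largest error, which limits the dim second probes of Mlxip and Mlxipl most, followed by the Arrdc3 probe.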
